A study of Mus musculus with 14 samples.

Results

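The regions described are mouse chromosomes 14 and 18 (chr14 and chr18), which were covered at a reduced level from end to end in cultured B16F10 melanoma cells. All bins of the deposited coverage table on these chromosomes were taken, except 3 bins of chr14 between positions 52353919 and 54085778 of mm10, which hold the T cell receptor alpha locus. This left 381 of the 4880 bins, 220 on chr14 and 161 on chr18, with a median width of 542 kb on chr14 and 540 kb on chr18. Each cell was divided by its own chr1 to chr19 median. The members were chosen by the coverage of the culture, which lay below that of naive white blood cells (WBC) on these chromosomes, so that difference is given as a description and carries no test.

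The table holds 648 single-cell genomes from 14 samples, amplified with MALBAC (a quasi-linear whole-genome amplification for single cells) after fluorescence-activated sorting on tumor and host markers. The 9 tumor samples came from female C57BL/6J mice, aged 6-8 weeks, injected with fluorescently labelled B16F10 cells; they hold 450 cells labelled DP, 43 labelled CTC and 46 labelled WBC, from blood, lung or both. Their names are C1L, C1N, C1R, C2N, C2R, C3R, P1, P2 and P4, and the labels explain neither the letters C and P nor the abbreviation DP. The control samples hold 22 cells of the B16F10 culture, a line of C57BL/6J background, together with 24 PltLike, 24 Duplike, 18 CDP and 21 WBC cells, all labelled naive C57BL/6J females of the same age, in 1 sample each. The labels do not say that a tumor sample is 1 mouse, so p-values over samples measure the spread between samples only.

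Cells were classed by genome with a score read from the other autosomes: the slope of a cell's profile on the difference between culture and naive WBC. A score above 0.5, called a tumor genome, was found in 396 cells and a lower score, called a host genome, in 252. Among DP cells 268 had a tumor genome and 182 a host genome. The PltLike, Duplike and CDP cells, although labelled naive, scored above 0.5 in all but 3 Duplike cells, and are described by their library names. The deposited coverage gathered near 5 levels, with autosomal medians near 1.8 (244 cells), 3.7 (317), 5.6 (61), 7.7 (10) and 9.6 (16). WBC cells lay near 1.8 and CTC and culture cells near 3.7. The limit of 0.5 divides cells of intermediate score. Near 7.7 the mean score was 0.40 in 6 host-genome and 0.56 in 3 tumor-genome DP cells, while 176 host-genome DP cells near 1.8 averaged 0.02. The Duplike cells below the limit lay near 5.6 (2) and 7.7 (1). For such cells host genome is a label of the score only. The number of reads behind a cell is unknown. The bin-to-bin noise of a cell (log2) ran between 0.141 and 0.279, with a median of 0.178.

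Tumor cell lines commonly carry gains and losses of whole chromosomes, which change the dose of every gene on them at once. Mouse chr14 carries the cell-cycle inhibitor Rb1 and the deubiquitinase Bap1, a suppressor of uveal melanoma in humans, and chr18 carries the Wnt-pathway inhibitor Apc and Smad4, which transmits TGF-beta signals. Whole-genome amplification of a cell distorts coverage locally, so a broad loss is read from many neighbouring bins, and a focal loss is a shorter stretch that falls below its own chromosome.

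On chr14, a pair of short stretches fell well below the rest of the chromosome in the culture. The first spans 2 bins at chr14:9597803-10700737 (mm10, 1103 kb). These cover 68.4% of Fhit (chr14:9550092-11162061), which encodes a diadenosine triphosphate hydrolase and spans a common fragile site, and Fhit is the sole protein-coding gene they touch. The second is a single bin, chr14:117707247-118230495 (523 kb), holding all or part of Gpc6, a glypican, Dct, the melanocyte enzyme dopachrome tautomerase, Tgds, a dehydratase of nucleotide sugars, and Gpr180, an orphan receptor. The culture averaged -0.87 in the Fhit bins and -0.81 in the Dct bin, as log2 levels relative to naive WBC. The single-bin stretch was taken up after the values had been seen.

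The promoters of the genes at these stretches lie differently to the deep bins, which is why they are printed. The Dct promoter (chr14:118052197-118052496, minus strand) is inside the deep bin. The first listed Fhit promoter (chr14:11161986-11162285, minus strand) is in the next bin out, where the culture averaged -0.37, while another listed Fhit start (chr14:10453409-10453708, minus strand) is inside a deep bin at -0.89. Sequences are from RefSeq on GRCm38.p6, the assembly known as mm10, and run 250 bases before to 50 after the start. Capitals mark CATGTG, searched on both strands, the core of the M-box through which Mitf acts on melanocyte genes.
Dct promoter: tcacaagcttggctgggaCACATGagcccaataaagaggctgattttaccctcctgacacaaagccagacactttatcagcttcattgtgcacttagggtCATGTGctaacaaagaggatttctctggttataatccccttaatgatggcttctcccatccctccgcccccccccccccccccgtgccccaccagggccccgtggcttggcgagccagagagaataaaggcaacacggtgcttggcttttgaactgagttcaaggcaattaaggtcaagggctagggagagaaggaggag
Fhit promoter: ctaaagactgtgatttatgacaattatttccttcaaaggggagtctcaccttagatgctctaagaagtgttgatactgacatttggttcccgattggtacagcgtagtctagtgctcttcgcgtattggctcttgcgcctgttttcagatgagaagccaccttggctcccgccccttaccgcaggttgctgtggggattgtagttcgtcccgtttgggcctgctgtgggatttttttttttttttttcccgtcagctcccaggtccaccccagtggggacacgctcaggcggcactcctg
The Dct window holds 2 such matches on either strand, printed as CACATG and CATGTG, and both Fhit windows hold 0. Of all 32851 promoters of this length, 14.2% hold at least 1 match.

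In the culture, both chromosomes were low over their whole length. The chr14 level of a cell, the median log2 value over its kept bins, averaged -0.41 ± 0.05 in the 22 culture cells, against 0.01 ± 0.03 in the 21 naive WBC (SD over cells). On chr18 the culture averaged -0.38 ± 0.05, against 0.01 ± 0.03 in naive WBC. As ratios to the cell's autosomal median these were 0.746 ± 0.031 and 0.758 ± 0.029 in the culture, against 0.997 ± 0.017 and 0.989 ± 0.019 in naive WBC, for chr14 first and chr18 after it. For scale, 3 copies among 4 would give a ratio of 0.75. No culture cell overlapped a naive WBC on either chromosome: the highest culture cell stood at -0.28 on chr14 and -0.26 on chr18, and the lowest naive WBC at -0.05 and -0.03.

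The bins below a log2 level of -0.2 in the culture numbered 209 of 211 on chr14 and 154 of 154 on chr18, counted over bins that reached the table's ceiling of 10 in fewer than 1% of cells. The 16 member bins that failed this filter, 9 on chr14 and 7 on chr18, were left out. Among the other autosomes the largest such share was 37.7%, on chr8, and by the median over bins chr14 ranked lowest of the autosomes and chr18 next. In the culture the bins at both ends were below the limit. The first and last bins of chr14 stood at -0.46 and -0.37, and the first and last kept bins of chr18 at -0.39 and -0.30. The first chr14 bin, with a naive WBC ratio of 0.257, also stood at -0.22 in host-genome DP cells, so it says little of that end. The last kept chr18 bin stood at -0.18 in CTC and -0.25 in tumor-genome DP, and the bin beyond it failed the ceiling filter. The same limit was passed by 207 of 211 chr14 and 149 of 154 chr18 bins in CTC, and by 204 and 147 in tumor-genome DP cells. WBC of the tumor samples passed it in 1 chr14 bin and 0 chr18 bins. Host-genome DP cells passed it in 13 chr14 bins, of which 7 lie in the first 8 Mb and 3 between 41 and 45 Mb, and in 0 chr18 bins.

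**Figure D1:**
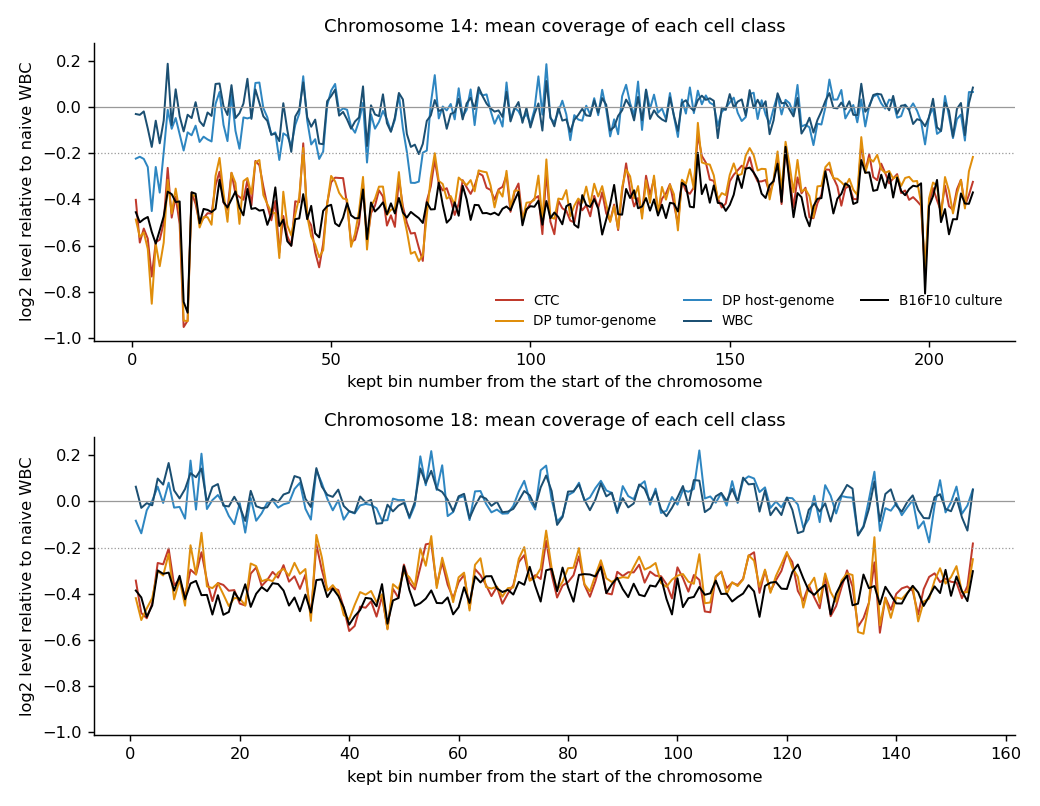
Mean log2 level relative to naive WBC (y axis) of each kept bin in order along chr14 (upper panel, 211 bins) and chr18 (lower panel, 154 bins), for CTC, tumor-genome and host-genome DP cells, WBC and the B16F10 culture; the dotted line marks -0.2. The CTC, tumor-genome DP and culture lines lie below the dotted line nearly throughout, with narrow dips at the Fhit and Dct bins of chr14.

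Cells from tumor samples that carried the tumor genome sat at nearly the culture's level. CTC averaged -0.39 ± 0.07 on chr14 (range -0.52 to -0.16) and -0.36 ± 0.08 on chr18 (range -0.56 to -0.05; SD over 43 cells in 5 samples). Tumor-genome DP cells near coverage 3.7 averaged -0.39 ± 0.07 and -0.36 ± 0.06 over 219 cells in 8 samples. WBC of the tumor samples averaged -0.02 ± 0.04 and 0.01 ± 0.06 over 46 cells, and host-genome DP cells near 1.8 averaged -0.02 ± 0.05 and 0.01 ± 0.05 over 176 cells. CTC and WBC nearly met on chr14, where the lowest WBC stood at -0.15, and overlapped on chr18, where the lowest WBC stood at -0.18. PltLike cells averaged -0.43 ± 0.12 on chr14 and -0.36 ± 0.15 on chr18 (24 cells of 1 sample).

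By sample, the chr14 mean of CTC was -0.37 in C1L (3 cells), -0.33 in C1N (6), -0.39 in C1R (15), -0.42 in C2R (14) and -0.39 in C3R (5). The WBC means of these samples were 0.00, -0.03, -0.01, -0.00 and -0.04 in the same order. No sample mean of CTC overlapped those of WBC. On chr18 the CTC means were -0.34, -0.22, -0.38, -0.38 and -0.38, and C1N stood highest. The 8 tumor-genome DP sample means lay between -0.39 and -0.25 on chr14, with a median of -0.37, and between -0.37 and -0.25 on chr18, with a median of -0.33. C1N was the highest in both.

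**Figure D2:**
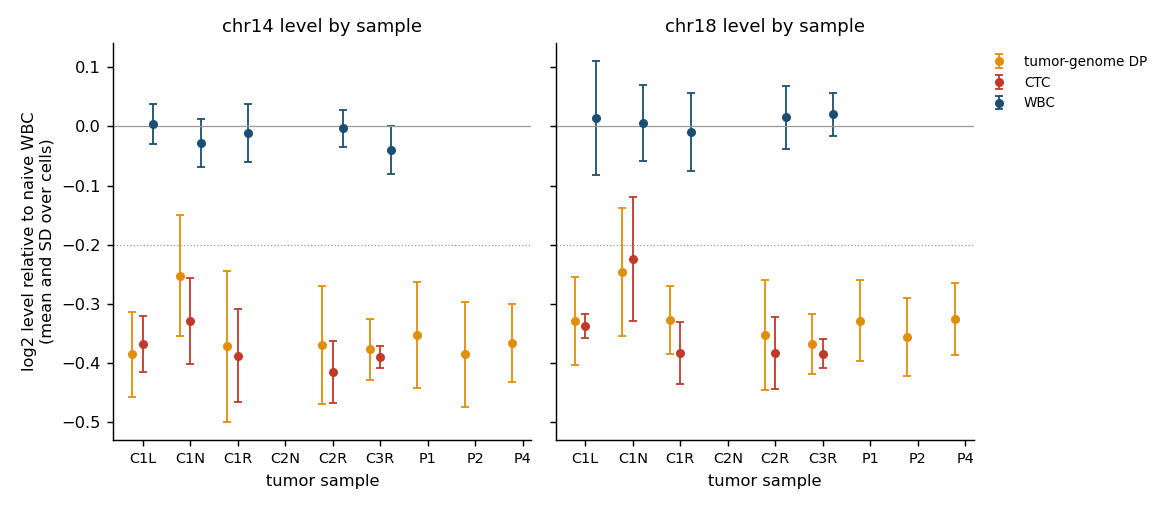
Mean log2 level relative to naive WBC (y axis; bars are SD over cells) of chr14 (left) and chr18 (right) by tumor sample, for tumor-genome DP cells, CTC and WBC with at least 3 cells in a sample; the dotted line marks -0.2. The WBC means lie near 0 in each of the 5 samples that have them, and the highest tumor-genome means on both chromosomes are those of C1N.

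The depth of both losses in tumor-genome DP cells was compared with CTC of the same samples. Tumor-genome DP averaged -0.35 ± 0.06 and CTC -0.38 ± 0.03 on chr14 (SD over 5 samples). The paired difference, DP minus CTC, was 0.03 ± 0.04 (two-sided exact sign-flip permutation test, p = 0.25; the smallest p that 5 samples allow is 0.0625). On chr18 the means were -0.32 ± 0.05 in tumor-genome DP and -0.34 ± 0.07 in CTC, with a difference of 0.02 ± 0.03 (same exact test, p = 0.25). DP was higher in 4 of 5 samples on each chromosome, by less than the spread between samples. With only cells near the culture's coverage, the differences were 0.0044 on chr14 and -0.0084 on chr18, and with a score limit of 0.75 they were 0.0006 and -0.0047.

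Across samples, chr14 lay slightly below chr18. The difference, chr14 minus chr18, averaged -0.03 ± 0.01 over the tumor-genome cells of 8 samples and was negative in 8 of 8 (two-sided exact sign-flip permutation test, p = 0.00781, the smallest possible with 8). A difference of this size was also measured in cells with a host genome: -0.05 ± 0.03 in host-genome DP cells, negative in 9 of 9 samples, and -0.03 ± 0.02 in WBC, negative in 5 of 5.

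Across all bins, the CTC and WBC of the 5 samples with at least 3 cells of each were compared with limma, with the sample as a block and Benjamini-Hochberg adjustment. CTC were lower at an adjusted p under 0.05 in all 365 kept bins of the pair of chromosomes, where 30.4% of the 4376 bins tested over the genome were called lower. The difference, CTC minus WBC, had a median of -0.36 over the member bins and -0.02 over all bins tested, and ran between -0.90 and -0.13 in the members, with the largest adjusted p at 0.0197. Leaving out a sample at a time left between 363 and 365 member bins called.

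The listed genes on the chromosomes were read through the bin over each gene's midpoint. All 47 fell, in 43 distinct bins: 12 of 12 tumor suppressors on chr14 (median CTC minus WBC -0.39) and 12 of 12 on chr18 (-0.40), 7 of 7 and 6 of 6 genes of melanocytes and the neural crest (-0.35 and -0.33), and 6 of 6 and 4 of 4 genes of growth and survival signalling (-0.39 and -0.40). Since every member bin was called, these counts say no more of the lists than of the chromosomes. DNA dose was measured here, not expression.

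On chr14, the 3 lowest listed genes in the culture were Fhit, Dct and Wnt5a. Fhit stood at -0.89 ± 0.23 in the culture (SD over 22 cells) and fell by 0.90 ± 0.05 in CTC relative to WBC (SE, limma adjusted p = 1.3e-09). Dct stood at -0.81 ± 0.15 in the culture and fell by 0.65 ± 0.05 in CTC (limma adjusted p = 2.2e-08). Wnt5a, a non-canonical Wnt ligand linked to melanoma invasion, stood at -0.55 ± 0.29 in the culture and at -0.63 in CTC. Ptprg, a receptor tyrosine phosphatase next to Fhit, stood at -0.50 ± 0.20 in the culture. Bap1 and Klf5, a Krüppel-like transcription factor, were both at -0.52 in the culture, with CTC minus WBC differences of -0.27 and -0.42. The 3 highest were Gpc6 at -0.33 ± 0.15, Gpc5, another glypican, at -0.34 ± 0.18, and Rb1 at -0.35 ± 0.15 in the culture. Gpc6 is read here at its midpoint only, and the deep bin holding Dct covers 25.8% of the gene. Rb1 fell by 0.27 ± 0.04 in CTC (limma adjusted p = 4.6e-05). Ednrb, the endothelin receptor of melanoblasts, was at -0.46 ± 0.14 in the culture and -0.31 in CTC. The Hippo kinase Lats2 was at -0.43 in the culture and -0.29 in CTC.

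On chr18, the listed genes spread over a narrower range in the culture. The 3 lowest were Smad7, an inhibitory Smad, at -0.49 ± 0.14, Ndfip1, an adaptor of Nedd4 ubiquitin ligases, at -0.46 ± 0.11, and Apc at -0.45 ± 0.16. The 3 highest were Dcc, a netrin receptor, at -0.27 ± 0.24, Setbp1, which binds the oncoprotein SET, at -0.32 ± 0.18, and Smad2, a receptor-activated Smad, at -0.35 ± 0.16. Setbp1 was nonetheless the lowest listed chr18 gene in CTC, at -0.51, in tumor-genome DP, at -0.57, and in PltLike cells, at -0.77. Its bin was also low in WBC and in host-genome DP, at -0.11 in each. The CTC minus WBC difference of Setbp1 was -0.34, against a median of -0.40 over the 12 listed tumor suppressors of chr18. Apc fell by 0.38 ± 0.05 in CTC relative to WBC and Dcc by 0.25 ± 0.05 (SE, limma adjusted p = 7.7e-06 and 0.00070). Smad4 was at -0.41 ± 0.14 in the culture and -0.42 in CTC. The melanocortin receptor Mc4r was at -0.36 in the culture and -0.24 in CTC. The growth factor Fgf1 was at -0.37 in the culture and -0.32 in CTC.

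Between tumor-genome DP cells and CTC, 3.02% of the 4376 bins passed the same limma test and 0 of the 365 members did. At an unadjusted p under 0.05 the members numbered 30 of 365, beside 585 of 4376 over all bins, and their median difference was 0.02. The tumor-genome DP cells of the 3 P and 5 C samples were compared with limma without a block. Here 0 member bins passed, where the share called over all bins was 0%. An unadjusted p under 0.05 was found in 50 of 365 members, beside 852 of the 4376 bins. Without C3R, however, 413 bins passed, 26 of them members, of which 23 were lower in P. The chr14 mean was -0.37 ± 0.02 over P samples and -0.35 ± 0.06 over C samples (two-sided exact permutation test, p = 0.875), and that of chr18 was -0.34 ± 0.02 and -0.32 ± 0.05 (p = 0.768, same exact test). Without C1N, the highest C sample, both differences changed sign, to 0.01 each.

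A cell was counted as carrying a loss when its level was below -0.2. Within 0.05 of this limit lay 42 of 648 cells on chr14 and 48 on chr18. It falls inside the range of cells near coverage 5.6 (-0.38 to -0.10 on chr14 in tumor-genome DP), so the counts in such cells, CDP and many Duplike among them, depend on where it is set. The highest cell inside stood at -0.201 on both, and the lowest outside at -0.198 on chr14 and -0.197 on chr18. All 22 culture cells carried both losses, and 0 of 21 naive WBC carried either, which allows a share of up to 14.3%, taking 3 cells of the total as the upper limit of a count of 0 here and in what follows. Of 43 CTC, 40 carried both (93.0%, exact Clopper-Pearson 95% interval 80.9 to 98.5), 2 that of chr14 alone and 1 that of chr18 alone. Of 46 WBC, 0 carried either, which allows a share of up to 6.52%. Such bounds reflect counting error alone.

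Of the 450 DP cells, 256 carried both losses (56.9%, 52.2 to 61.5), 6 carried that of chr14 alone, 4 that of chr18 alone and 184 neither. Set against the genome read on the other autosomes, both losses were found in 254 of 268 tumor-genome DP cells (94.8%, 91.4 to 97.1) and in 2 of 182 with a host genome (95% interval 0.133 to 3.91%). Near coverage 3.7 the tumor-genome count was 214 of 219 (97.7%). All 3 host-genome DP cells with a call lay near 7.7, where the mean score of the 6 host-genome cells was 0.40. Of the 176 near 1.8, 0 had any, which allows up to 1.70%. PltLike cells carried both losses in 23 of 24 cells, Duplike in 19 of 24 and CDP in 12 of 18.

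**Figure D3:**
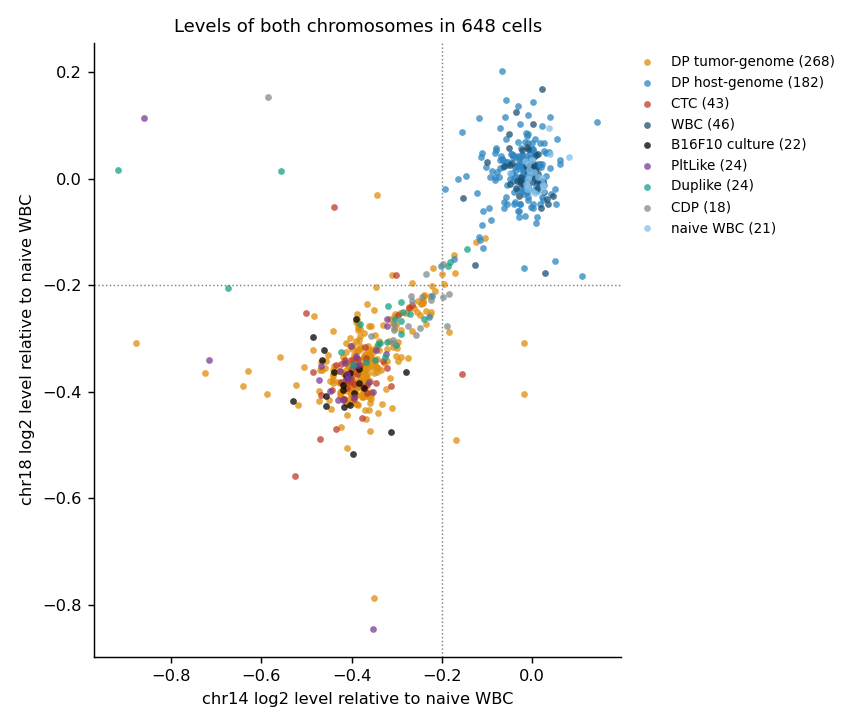
The chr14 level (x axis) and chr18 level (y axis) of each of the 648 cells, as log2 relative to naive WBC; colours are cell classes with their numbers of cells, and dotted lines mark -0.2. Host-genome cells gather near 0 and tumor-genome cells near -0.4 on both axes, with a few cells low on chr14 only, or displaced along a single axis.

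The share of DP cells with both losses differed widely between samples: 70.0% in C1L (40 cells), 19.4% in C1N (36), 38.6% in C1R (57), 0% in C2N (15), 67.2% in C2R (64), 87.7% in C3R (81), 44.1% in P1 (93), 91.4% in P2 (35) and 41.4% in P4 (29). Over samples, P averaged 59.0% ± 28.1 (n = 3) and C 47.1% ± 33.6 (n = 6), and the difference of 11.8 points was within the spread (two-sided exact permutation test, p = 0.619). Without P2 the difference was -4.41 points. All of these shares count host-genome and tumor-genome DP cells together.

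In 5 samples DP cells came from both tissues, and in 4 of them the share with both losses was lower in lung. In C1L it was 0% of 7 lung cells against 84.8% of 33 blood cells, and in C1N 0% of 14 lung cells against 31.8% of 22 blood cells. In C1R it was 2.94% of 34 lung cells against 91.3% of 23 blood cells, and in C2R 20% of 25 lung cells against 97.4% of 39 blood cells. P1 went the other way, with 63.8% of 47 lung cells against 23.9% of 46 blood cells. These shares count host-genome and tumor-genome DP cells together. Host-genome cells were 7 of 7 lung DP cells in C1L, 14 of 14 in C1N and 33 of 34 in C1R. They were 19 of 25 in C2R lung and 13 of 47 in P1 lung. In blood they were 3 of 33, 12 of 22, 2 of 23, 1 of 39 and 35 of 46 in the same order. The share among tumor-genome cells alone was not tested between tissues. The remaining samples hold DP cells of a single tissue: C2N and P2 of lung, at 0% and 91.4%, and C3R and P4 of blood, at 87.7% and 41.4%. The paired difference, lung minus blood, averaged -48.5 points ± 54.4 (17.4% ± 27.3 in lung, 65.9% ± 35.1 in blood; two-sided exact sign-flip permutation test, p = 0.188, where 0.0625 is the smallest possible).

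**Figure D4:**
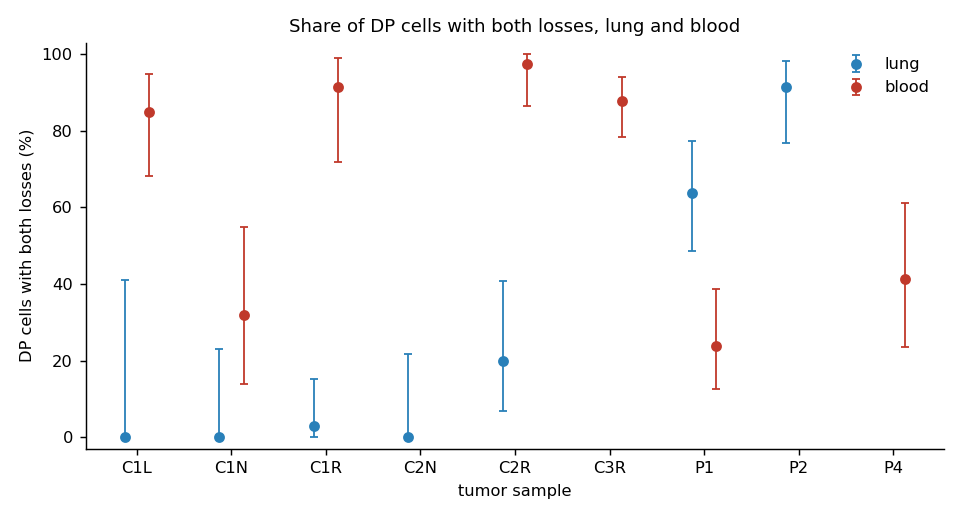
Share of DP cells with both losses (y axis, %) in lung and blood of each tumor sample (x axis), with exact Clopper-Pearson 95% intervals over cells. Lung lies below blood in C1L, C1N, C1R and C2R and above it in P1, at 63.8% against 23.9%.

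The losses were shallower, relative to the cell's own median, in cells near higher coverage levels. Tumor-genome DP cells near 5.6 averaged -0.25 ± 0.05 on chr14 and -0.23 ± 0.04 on chr18 (29 cells), CDP cells, all near 5.6, -0.28 ± 0.09 and -0.23 ± 0.10 (18 cells), and Duplike cells near 5.6 -0.32 ± 0.14 and -0.23 ± 0.09 (14 cells). Duplike cells near 3.7 averaged -0.43 ± 0.19 and -0.29 ± 0.12 (9 cells). Tumor-genome DP cells near 7.7 averaged -0.16 ± 0.03 and -0.19 ± 0.09 (3 cells). Those near 9.6 averaged -0.36 ± 0.15 and -0.30 ± 0.06 (16 cells), beside -0.39 ± 0.07 and -0.36 ± 0.06 near 3.7.

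On the deposited coverage scale, the cells near 5.6 measured about what a CTC and a naive WBC measured in sum. Adding the mean CTC to the mean naive WBC gives 4.68 on chr14, and the measured means were 4.70 ± 0.18 in DP, 4.65 ± 0.25 in CDP and 4.43 ± 0.39 in Duplike. On chr18 the sum is 4.70, and the means were 4.72 ± 0.12 in DP, 4.76 ± 0.39 in CDP and 4.67 ± 0.28 in Duplike. Near 9.6, a pair of CTC and a naive WBC sum to 7.51 on chr14 and 7.58 on chr18, beside 7.48 ± 0.69 and 7.64 ± 0.45 in DP. Near 7.7, the chr14 means were 6.93 in 3 tumor-genome and 6.85 in 6 host-genome DP cells, beside 6.51 for a CTC with a pair of naive WBC and 5.68 for a pair of CTC. The autosomal sum of a CTC with a pair of naive WBC is 7.41, below the medians of these cells. As ratios to the autosomal value, chr14 measured 0.889 and 0.885 in these DP cells, beside 0.879 and 0.762 for the sums. On chr18 the ratios were 0.867 and 0.874, beside 0.880 and 0.772. These sums are arithmetic on class means. What sets the coverage level of a cell is not given in the sources used here.

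Within chr14 the depth of the loss was not even. Optimal partitioning of the culture mean gave 4 segments, at -0.53 up to position 10700737, -0.45 up to 80649481, -0.36 up to 117707246 and -0.46 to the end. The segment after 80.65 Mb averaged above the segment before it by 0.09 in the culture (in 22 of 22 cells). This step was 0.09 in CTC (42 of 43) and 0.11 in tumor-genome DP (253 of 268). It measured 0.04 in host-genome DP (146 of 182) and 0.03 in WBC (32 of 46). These counts compare segment means and do not locate a breakpoint in a cell. A cell's own best step, sought within 10 bins, lay within 2 bins of 80.65 Mb in 18.2% of culture cells. The share was 25.6% in CTC and 47.0% in tumor-genome DP, beside 23.1% in host-genome DP, 21.7% in WBC and 9.52% in naive WBC. The boundary was placed on the culture mean, so the culture's own count follows from that choice, and naive WBC average 0 by construction. The step up at the end of the first segment measured 0.08 in the culture, against 0.15 in host-genome DP and 0.02 in WBC, and the step into the last segment measured -0.10 in the culture, against -0.05 in host-genome DP and -0.03 in WBC. Each end segment includes a deep focal stretch.

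On chr18 the culture gave 2 segments, -0.41 up to position 39632673 and -0.38 beyond it, and 1 segment with a doubled penalty. The step of 0.04 was 0.01 in CTC and 0.01 in tumor-genome DP. CTC gave 6 segments on chr14 and 4 on chr18. Over the culture, CTC and tumor-genome DP cells, the highest segment mean was -0.31, in DP on chr14.

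A small number of tumor-genome cells departed from the common level. Among the 317 near 3.7, 5 (1.58%, 0.514 to 3.64) had no chr14 loss by the limit and 6 (1.89%) lay below -0.6 on chr14, while 6 (1.89%) had no chr18 loss and 2 (0.631%) lay below -0.6 on chr18. A C2R blood DP cell had a chr14 ratio of 0.997 with chr18 at -0.40, and a P1 lung DP cell a chr14 ratio of 0.989 with chr18 at -0.31. A C1N CTC had a chr18 ratio of 0.966 with chr14 at -0.44. A Duplike cell stood at -0.92 on chr14 with chr18 at 0.02, and a PltLike cell at -0.86 with chr18 at 0.11. A P2 lung DP cell had a chr14 ratio of 0.595, with a step within the chromosome that is given below. On chr18 the 2 deep cells were a PltLike cell at 0.546 and a C2R lung DP cell at 0.566. For scale, 2 copies among 4 would give a log2 level of -1 and 3 among 4 one of -0.42.

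Over these 317 cells the chr14 and chr18 levels had a Pearson correlation of -0.12 and a Spearman correlation of 0.22, and over 243 host-genome cells near 1.8 the values were -0.00 and -0.04. Over the 43 CTC they were 0.32 and 0.34. Cells of a sample share its preparation, and each cell's levels share their divisor, so these are descriptions.

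Partial changes within a chromosome were sought in single cells as a step of at least 0.35 between segments of at least 20 bins. On chr14 such a step was found in 59 cells from groups with tumor or mixed genomes and in 15 host-genome cells. Of the 59, 34 had their boundary in the first 22 Mb and 15 between 44 and 48 Mb, and all of these were lower before it than after. With at least 20 bins a segment, no boundary can be placed on chr14 before position 13915560. Most of the 34 stood exactly there, so where their level changes within the first 22 Mb is not resolved. Of the host-genome cells, 14 had theirs in the first 22 Mb, 11 of them lower before it, and 1 between 44 and 48 Mb. The other 10 lay elsewhere, where 0 host-genome cells had one. A C1N CTC stood at 0.18 before 84.0 Mb and at -0.76 after it, and is the cell described above without a chr18 loss. A P4 blood DP cell stood at -0.03 before 87.3 Mb and -0.84 after it. In P2, a lung DP cell stood at -0.08 before 32.3 Mb and -0.87 after it, and another at -0.43 before 70.5 Mb and -0.89 after it. The first of these is the P2 cell described above with a chr14 ratio of 0.595. A PltLike cell stood at -0.24 before 57.8 Mb and -0.91 after it.

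On chr18, 3 cells of tumor or mixed groups and 2 host-genome cells had such a step. A C2R lung DP cell, already low at -0.71, dropped to -1.22 after 65.1 Mb, and a C3R blood DP cell stood at -0.43 before 74.2 Mb and -0.84 after it. This C2R cell is the one described above with a chr18 ratio of 0.566. By class, chr14 steps were found in 38 of 268 tumor-genome DP cells (14.2%, 10.2 to 18.9), 7 of 43 CTC (16.3%), 10 of 24 PltLike cells (41.7%) and 13 of 182 host-genome DP cells (7.14%, 3.86 to 11.9). They were found in 2 of 46 WBC and 1 of 22 culture cells.

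The Fhit stretch was measured against each cell's own chr14 level. Its depth was -0.55 ± 0.22 in CTC, -0.56 ± 0.22 in tumor-genome DP, -0.45 ± 0.21 in the culture and -0.69 ± 0.32 in PltLike cells (SD over cells), against -0.12 ± 0.16 in host-genome DP, -0.05 ± 0.11 in WBC and -0.01 ± 0.09 in naive WBC. The ratio to the autosomal median was 0.546 in CTC and 0.573 in the culture, where naive WBC measured 1.04. The bins on either side, 0.83 Mb before and 0.82 Mb after the centre, stood at 0.00 and 0.04 relative to chr14 in the culture. Depth nearer to the culture's mean than to 0 was found in 42 of 43 CTC, 263 of 268 tumor-genome DP cells, 20 of 22 culture cells and 23 of 24 PltLike cells, against 42 of 182 host-genome DP cells, 2 of 46 WBC and 0 of 21 naive WBC. The stretch and this limit were set on the culture mean, so the culture's own depth and count follow from that choice.

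By sample, the mean Fhit depth in CTC was -0.51 in C1L, -0.55 in C1N, -0.56 in C1R, -0.54 in C2R and -0.58 in C3R. In WBC of the same samples it was 0.02, -0.06, -0.06, -0.05 and -0.05. The groups did not overlap, and the difference, CTC minus WBC, was -0.51 ± 0.02, negative in each of the 5 (p = 0.0625 by an exact sign-flip permutation test, two-sided, the smallest p possible). Tumor-genome DP minus CTC was 0.02 ± 0.12 (same exact test, p = 0.688). The tumor-genome DP means of 8 samples ran between -0.64 and -0.37, with C1N at -0.37.

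The Dct bin was less deep and less uniform. Its depth against chr14 was -0.34 ± 0.23 in CTC, -0.34 ± 0.20 in tumor-genome DP and -0.40 ± 0.14 in the culture, against -0.13 ± 0.19 in host-genome DP, -0.07 ± 0.14 in WBC and -0.01 ± 0.15 in naive WBC. In CTC the sample means were -0.25, -0.47, -0.35, -0.25 and -0.45 in C1L, C1N, C1R, C2R and C3R, and in WBC -0.13, -0.07, -0.12, 0.03 and -0.07. The difference was -0.28 ± 0.11, also negative in each (same exact test, p = 0.0625). The depth is taken relative to naive WBC, whose ratio to the autosomal median was high in this bin, at 1.14. That ratio was 1.07 in WBC of the tumor samples, 1.02 in host-genome DP, 0.691 in CTC and 0.648 in the culture. Over the whole of chr14 the culture's ratio was 0.746. Depth nearer to the culture's mean than to 0 was found in 34 of 43 CTC and 211 of 268 tumor-genome DP cells, against 60 of 182 host-genome DP cells and 9 of 46 WBC. This bin and limit were also set on the culture mean, from which the culture's own depth follows. On chr18, 0 bins lay 0.25 or more below the chromosome's median in the culture.

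**Figure D5:**
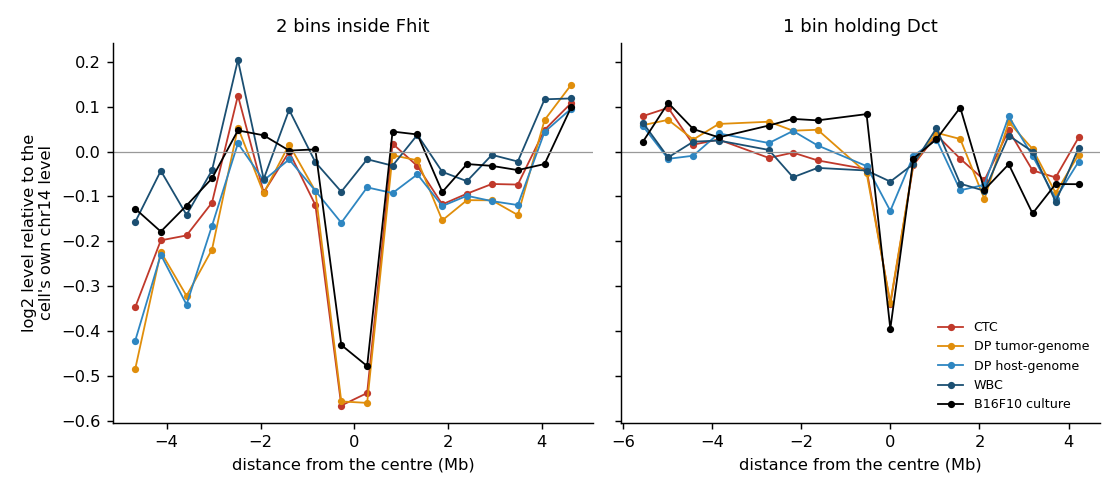
Log2 level relative to the cell's own chr14 level (y axis) of bins around the 2 Fhit bins (left) and the Dct bin (right), by distance from the centre in Mb (x axis), for CTC, tumor-genome and host-genome DP cells, WBC and the culture; points are means over cells. CTC, tumor-genome DP and culture means drop at the centre and return to near 0 in the adjoining bins.

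A pair of other stretches on chr14 were low in part of the host-genome and part of the tumor-genome cells. Over the first 9 bins (chr14:1-7954792), where naive WBC themselves measured a ratio of 0.412, a depth below -0.3 against chr14 was found in 73 of 268 tumor-genome DP cells, 8 of 43 CTC, 13 of 24 PltLike, 12 of 24 Duplike, 2 of 22 culture and 0 of 18 CDP cells, against 51 of 182 host-genome DP cells, 4 of 46 WBC and 0 of 21 naive WBC. At chr14:41012166-44733822 the counts were 69 of 268, 7 of 43, 15 of 24, 10 of 24, 2 of 22 and 0 of 18 in the same order, against 53 of 182, 3 of 46 and 0 of 21. The depths of both stretches went together, with a Spearman correlation of 0.85 over 317 tumor-genome and 0.75 over 243 host-genome cells, and lower where bin-to-bin noise was higher (-0.54 and -0.45 for the first stretch). The Fhit depth correlated with the first stretch at 0.52 over tumor-genome and 0.24 over host-genome cells. The part of amplification noise in these stretches was not tested. A stretch of chr18 at chr18:26190506-29490192 was below -0.3 in 22 of 268 tumor-genome DP cells and 4 of 43 CTC, against 3 of 182 host-genome DP cells and 2 of 46 WBC. The counts were 1 of 22 in the culture, 1 of 24 in PltLike and 1 of 24 in Duplike cells. They were 0 of 18 in CDP cells and 0 of 21 in naive WBC. This stretch lies within a segment of the CTC mean at -0.49 (chr18:25652167-31105376), so these counts are a description.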

How the data were processed

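The values are a coverage signal per bin and cell, which the authors normalised and scaled before it was deposited. How it was scaled is not given in the sources used here; most cells stop at exactly 10, and no read counts were used. BWA, Picard and SAMtools, and Trim Galore, HISAT2 and featureCounts, stand among the tools and mm10 among the builds, per the submitters' processing notes, with no versions. Cells were assigned to samples by the deposited batch column, and 0 other per-sample columns were left out.

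Each cell was divided by its chr1 to chr19 median, and log2 levels were taken relative to the mean of naive WBC in each bin, over bins at the ceiling in under 1% of cells (4376 of 4880 on the autosomes and X). A chromosome's level is the median over its bins. Comparisons between bins used limma 3.58.1 (R 4.3.3) on class means of samples with at least 3 cells. Comparisons of classes had the sample as a block, since classes of a sample share its batch label. That of P with C had no block, since a sample is either P or C. Comparisons of a single value used exact permutation over samples, and the exact Clopper-Pearson intervals came from scipy 1.17.1. Segments came from optimal partitioning with at least 5 bins. Runs of at least 3 bins lying 0.25 below their chromosome numbered 0, and the shorter run lengths of 2 and 1 bins gave the focal stretches. Named genes are those of 3 lists in a focal stretch, the 3 lowest and 3 highest per chromosome in the culture, and those in a segment adjoining a breakpoint; every segment adjoins one, so the last takes in all listed genes, and the further genes given were picked from them with their values known. On simulated data with 200 changed bins, the bin test recovered 55% of changes of 0.2 and 96% of changes of 0.4 for CTC against WBC. For DP against CTC it recovered 85% and 99%, and for P against C 70% and 98%. The members, lists, limits and tests were chosen with earlier results of these data known, and patterns already seen in them are not independent support.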

Additional observations from a re-analysis of the deposited data

Results flagged for a closer look

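In groups of 4 to 10 samples, 20 sets of sample values were examined for a sample far from the others, where chance gives about 1 in 20. C1N stood apart among the 8 samples with tumor-genome DP cells, with a mean chr14 level of -0.25 (the nearest sample at -0.35) and a mean chr18 level of -0.25 (the nearest at -0.33). Of its 10 such cells, 6 lay near coverage 3.7, and over cells near 3.7 alone its chr14 mean was still the highest, at -0.31 (nearest -0.38). The host-genome DP cells of P2, only 3, had a chr14 minus chr18 difference of -0.12, where the nearest of 9 samples had -0.06. The 3 WBC of C1L had a Fhit depth of 0.024, where the nearest of 5 samples had -0.05.

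The difference in the share of DP cells with both losses, lung minus blood, was 39.9 points in P1, the single P sample with both tissues, and averaged -70.6 points over the 4 C samples, which ran between -88.4 and -31.8. All 4 moved opposite to P1, and the difference between the letters was not tested. The shares count host-genome and tumor-genome DP cells together.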

How the results depend on the processing

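Limits: the labels give neither mice nor read counts, 5 samples cannot reach an exact p below 0.0625, and levels of single bins are noisy.

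The chr18 difference between tumor-genome DP and CTC reversed to -0.0047 with a score limit of 0.75 and to -0.0084 near the culture's coverage, where that of chr14 was 0.0006 and 0.0044. Bins called between these classes numbered 132 with the sample as a block and 0 without this replicate block, 0 with the score limit of 0.75, 0 near the culture's coverage, 222 in cells below the median noise and 242 over all bins; the members called were 3 in cells below the median noise, 1 with at least 5 cells a class and 5 over all bins. For CTC against WBC, 2090 bins and 365 members passed without the block. The culture's chr14 gave 11 segments under a halved penalty, and chr18 gave 1 under a doubled and 4 under a halved penalty. The focal runs numbered 1 with at least 2 bins and 2 with at least 1 bin. The 1-bin setting and the fits without cells near 7.7 and 9.6 were chosen after the data were seen.

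Leaving out each sample in turn gave these ranges. Tumor-genome DP minus CTC ran over 0.014 to 0.038 on chr14, 0.008 to 0.028 on chr18, -0.025 to 0.055 for the Fhit and -0.019 to 0.070 for the Dct depth, and over 46 to 150 bins and 0 to 1 members. P minus C ran over -0.025 to 0.0081 on chr14, -0.023 to 0.0074 on chr18, -4.41 to 20.6 points for the share, 0 to 413 bins and 0 to 26 members. CTC minus WBC ran over -0.514 to -0.503 for Fhit, -0.322 to -0.253 for Dct, and 1998 to 2150 bins. Lung minus blood ran over -70.6 to -38.5 points, and chr14 minus chr18 over -0.034 to -0.028, at an exact p of 0.0156, the smallest possible. All other alternatives run kept direction and side of the threshold.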
